A study of Mus musculus with 3 samples.

Results

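The insulin-like growth factor (IGF) axis was examined in hepatocyte preparations of 3 groups of mice through 10 genes: Igf1, Igfals, Ghr and the binding protein genes Igfbp1, Igfbp2, Igfbp3, Igfbp4, Igfbp5, Igfbp6 and Igfbp7. The genes were chosen by name, and 16 of the 43020 non-control spots carried one of these names, each spot a different probe. They stand among 31870 genes on the array. Igf1 had 5 probes, Ghr and Igfbp2 had 2 each, and each other gene had 1. All mice were wild-type male C57BL/6, entered the diet at 6 weeks of age, stayed on it for 16 weeks and were 22 weeks old and fasted overnight when their livers were digested with collagenase. The anti-VLA-4 mice ate a high-fat diet and, after 10 weeks of it, were injected into the peritoneum 2 times a week for 6 weeks with an antibody that blocks VLA-4, an integrin by which leukocytes hold on to endothelium. The HFD-IgG mice had the same diet and the same schedule of control IgG. The standard diet mice ate the standard diet, and the labels list no injection for them, so diet and injection differed together between HFD-IgG and standard diet.

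Each group had 1 single-colour array, so the differences have neither a replicate nor a test, and the number of mice behind an array is not in the labels. Values are relative signals: the background-subtracted spot signal divided by the 75th percentile of that array's non-control spots (514 in anti-VLA-4, 500.3 in HFD-IgG, 574 in standard diet). Errors after ± are the scanner's own error of the spot, which covers 1 array only and not the spread between mice or preparations. A probe's level depends on the probe, so levels were compared between arrays and not between genes. A difference was counted when it was at least 2-fold (a log2 difference of at least 1). Where the dimmer signal did not clear the background by the scanner's flag, the fold is a lower bound, written as "at least", taken against the probe's own signal or the lowest signal well above background on that array, whichever was higher. Spots well above background made up 62.4% in anti-VLA-4, 66.5% in HFD-IgG and 57.3% in standard diet. HFD-IgG and standard diet were hybridised on 1 slide and anti-VLA-4 on another, so the slide and the antibody cannot be told apart.

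Growth hormone from the pituitary binds the receptor encoded by Ghr on hepatocytes and, through JAK2 and STAT5, drives hepatic Igf1 and Igfals, whose product, the acid-labile subunit, holds IGF-I in a large circulating complex with IGFBP-3 or IGFBP-5. Hepatocytes also secrete IGFBP-1, IGFBP-2 and IGFBP-4, and IGFBP-1 is the member that insulin suppresses and fasting raises, through the transcription factor FOXO1. In liver, IGFBP-3 is known mainly from sinusoidal endothelial and Kupffer cells, IGFBP-7 from endothelial and stellate cells, and IGFBP-5 and IGFBP-6 from stellate cells, fibroblasts and mesothelium. On this background 6 genes were treated as hepatocyte-made (Igf1, Igfals, Ghr, Igfbp1, Igfbp2, Igfbp4) and 4 as sinusoidal-cell-made (Igfbp3, Igfbp5, Igfbp6, Igfbp7). The split was not read from these arrays.

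Igfbp1 and Igfbp2, the hepatocyte-made genes with the lowest HFD-IgG signals relative to standard diet, are shown by the 250 bases before their RefSeq starts (build GRCm38.p6, plus strand), at chr11:7197537-7197786 for Igfbp1 and chr1:72824230-72824479 for Igfbp2. Capitals mark the insulin response element core CAAAACA, to which FOXO1 is known to bind.
Igfbp1 promoter: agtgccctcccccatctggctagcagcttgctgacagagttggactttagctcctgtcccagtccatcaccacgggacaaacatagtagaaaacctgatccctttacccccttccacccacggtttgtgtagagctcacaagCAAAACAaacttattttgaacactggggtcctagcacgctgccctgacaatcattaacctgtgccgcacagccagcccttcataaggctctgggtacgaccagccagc
Igfbp2 promoter: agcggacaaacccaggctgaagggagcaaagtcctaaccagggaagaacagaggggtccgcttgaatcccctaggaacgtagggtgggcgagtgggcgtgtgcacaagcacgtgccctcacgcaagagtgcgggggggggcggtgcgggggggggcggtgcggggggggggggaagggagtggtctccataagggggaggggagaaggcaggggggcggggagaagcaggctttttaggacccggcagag
The core lay 108 to 102 bases upstream of the Igfbp1 start, and no match on either strand was in the Igfbp2 window. The Igfbp1 window was 53.2% G and C, and the Igfbp2 window 67.2%. RefSeq listed 14 promoters for the 10 genes, and Igfbp1 alone among the genes held CAAAACA, which 5.56% of 32851 promoters of the same length held on either strand. The STAT5 element TTCNNNGAA was found for Igfals alone, in 2 of its listed promoters, and in 7.02% of all promoters. These matches are letters in a window and not shown sites.

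In both comparisons with HFD-IgG, Igfbp1 differed more than any other hepatocyte-made gene of the axis. Its relative signal was 35.4 ± 3.54 on the anti-VLA-4 array, 7.30 ± 0.731 in HFD-IgG and 61.2 ± 6.12 in standard diet. The order was thus standard diet, anti-VLA-4, HFD-IgG, and each step exceeded the scanner errors. The HFD-IgG signal was 8.37-fold lower than that of standard diet (log2 difference -3.07, scanner error 0.20), and of 22002 genes compared only 16, Igfbp1 included, were at least as low. The anti-VLA-4 signal was 4.85-fold higher than that of HFD-IgG (2.28), where 26 of 22589 genes were at least as high, Igfbp1 included. Both differences share the HFD-IgG array, so they are not independent of each other. Set against the standard diet array, the signal was 57.9% on the anti-VLA-4 array and 11.9% on the HFD-IgG array. The difference between anti-VLA-4 and standard diet, 1.73-fold lower (-0.79), stayed under 2-fold and was smaller than that of Igfbp2 given next.

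Igfbp2, which encodes a binding protein that hepatocytes secrete more of in fasting, had the same order with a smaller step between the high-fat diet arrays. Its probe at chromosome 1, 72898813 to 72898872 (build mm9), gave 55.8 ± 5.58 on the anti-VLA-4 array, 38.0 ± 3.80 in HFD-IgG and 127 ± 12.7 in standard diet. The probe 72898677 to 72898736 gave 51.9, 36.1 and 115 on the same arrays, so both probes put standard diet highest and HFD-IgG lowest. HFD-IgG was 3.34-fold lower than standard diet by the first probe (-1.74) and 3.19-fold lower by the second (-1.68). Anti-VLA-4 was 1.47-fold and 1.44-fold higher than HFD-IgG (0.55 and 0.52), under the 2-fold line, and 2.28-fold and 2.23-fold lower than standard diet (-1.19 and -1.15). The anti-VLA-4 signal thus stood at 43.9% of standard diet and the HFD-IgG signal at 29.9%.

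**Figure D1:**
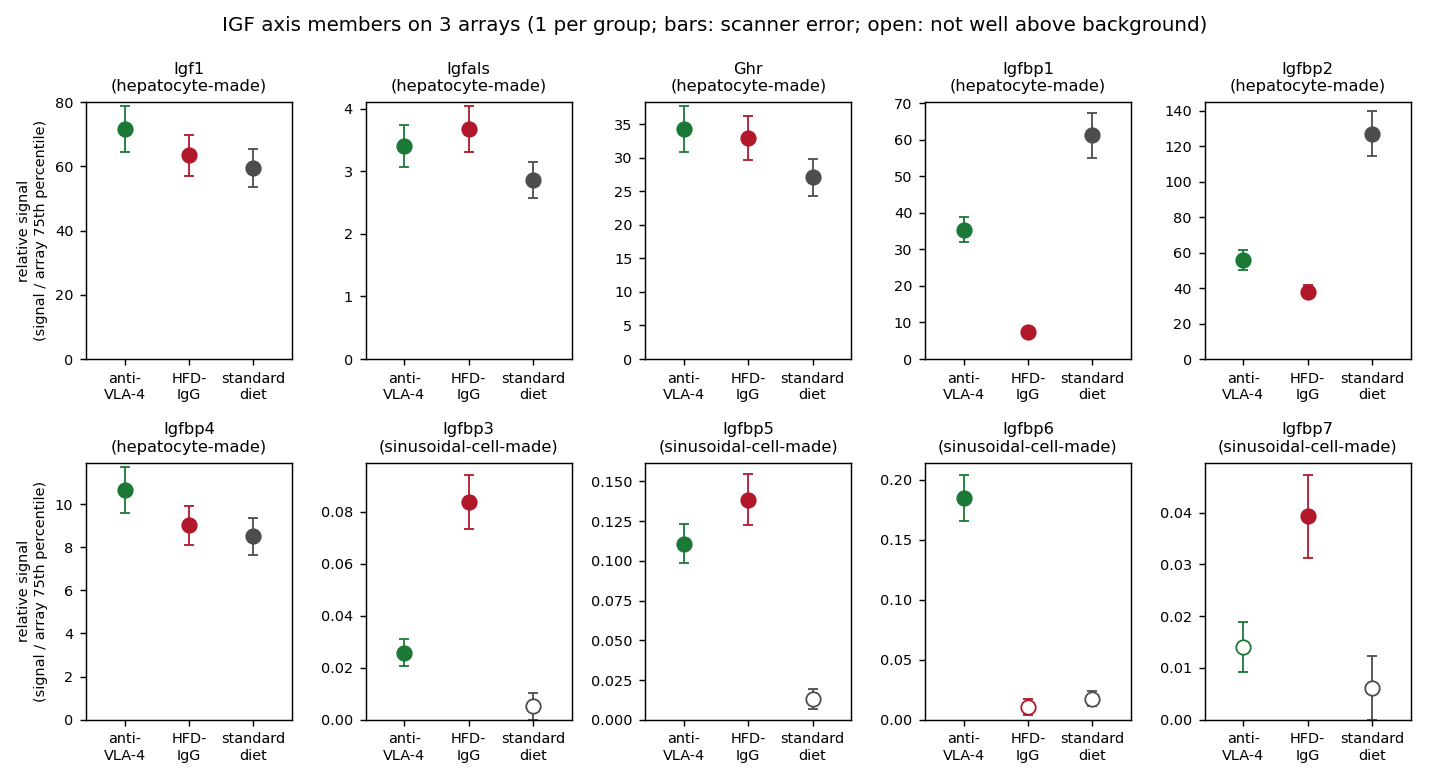
Relative signal (spot signal over the array's 75th percentile, linear axes from 0, own scale for each gene) of the 10 genes on the anti-VLA-4, HFD-IgG and standard diet arrays, from each gene's brightest probe. Points are single arrays, bars the scanner error and open points signals not well above background. Igfbp1 is lowest on the HFD-IgG array (7.30) and highest on the standard diet array (61.2), and Igfbp6 is well above background on the anti-VLA-4 array alone.

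By their brightest probes the other hepatocyte-made genes differed less than 2-fold between the arrays. Igf1, the hormone gene itself, had 71.6 ± 7.16 on the anti-VLA-4 array, 63.4 ± 6.34 in HFD-IgG and 59.5 ± 5.95 in standard diet at its brightest probe (chromosome 10, 87393581 to 87393640, mm9). The neighbours in that order did not differ beyond their scanner errors, and the log2 differences were 0.09 for HFD-IgG minus standard diet and 0.18 for anti-VLA-4 minus HFD-IgG. The 5 Igf1 probes did not share a direction for HFD-IgG minus standard diet, where the other 4 gave -0.55, -0.09, -0.20 and 0.20. For anti-VLA-4 minus HFD-IgG they gave 0.37, 0.32, 0.24 and -0.18. The brightest probe shares 40 bases with the one at 87393561, which gave -0.09 and 0.32, so these 2 are not separate measurements of the transcript. No Igf1 probe differed 2-fold in either comparison.

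Igfals had 3.40 ± 0.340 on the anti-VLA-4 array, 3.67 ± 0.367 in HFD-IgG and 2.87 ± 0.287 in standard diet. The 2 high-fat diet arrays did not differ beyond the scanner error, and HFD-IgG was 1.28-fold higher than standard diet (0.36, scanner error 0.20). Igfbp4, whose product holds IGF away from its receptor until the protease PAPP-A cleaves it, had 10.7 ± 1.07 on the anti-VLA-4 array, 9.02 ± 0.902 in HFD-IgG and 8.50 ± 0.850 in standard diet. Its log2 differences were 0.08 for HFD-IgG minus standard diet and 0.24 for anti-VLA-4 minus HFD-IgG. Its probe is 68.3% purine, and over bright probes the median difference moved with purine content, from -0.16 under 35% purine to 0.23 at 65% and over for HFD-IgG minus standard diet. Centred on probes of like purine content, the Igfbp4 differences were -0.04 and 0.47.

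The 2 Ghr probes shared a direction but lay on either side of the 2-fold line for anti-VLA-4 against standard diet. Its brighter probe (chromosome 15, 3277543 to 3277602, mm9) gave 34.2 ± 3.42 on the anti-VLA-4 array, 32.9 ± 3.29 in HFD-IgG and 27.1 ± 2.71 in standard diet. The probe at 3268107 to 3268166 gave 29.9 ± 2.99, 23.5 ± 2.35 and 14.3 ± 1.43 on the same arrays. Both probes put the arrays in the order anti-VLA-4, HFD-IgG, standard diet, although by the brighter probe the step between anti-VLA-4 and HFD-IgG was within the scanner errors. Anti-VLA-4 was 1.26-fold higher than standard diet by the brighter probe (0.34) and 2.09-fold higher by the other (1.06), and HFD-IgG was 1.21-fold and 1.64-fold higher (0.28 and 0.71). The array lists the 2 probes under different RefSeq transcripts of Ghr, so they need not measure the same one. The brighter probe stood for the gene in the counts, so Ghr was not counted as 2-fold different. The other probe did pass 2-fold for anti-VLA-4 against standard diet. With normexp background correction, which shifted the median of all compared genes for HFD-IgG minus standard diet to 0.68 from 0.04, the small differences of this comparison turned to -0.60 for Igf1, -0.21 for Igfals, -0.35 for Ghr and -0.51 for Igfbp4. The direction of these 4 genes between HFD-IgG and standard diet thus depended on the background correction.

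Among the 9 genes that could be compared between HFD-IgG and standard diet, 2 were at least 2-fold lower, Igfbp1 and Igfbp2, where 2.41% of all compared genes were. Both were hepatocyte-made. Another 2, the sinusoidal-cell-made Igfbp3 and Igfbp5, were at least 2-fold higher, where 20.4% of all compared genes were. The median difference was 0.09 over the 6 hepatocyte-made genes, beside 0.04 over all genes compared. It was -0.05 over genes well above background on all arrays, as these 6 were. The 3 sinusoidal-cell-made genes compared entered through HFD-IgG alone, so their values are bounds that can only be positive, and no median is given. Igfbp6 was not well above background on either of these arrays and was not compared.

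**Figure D2:**
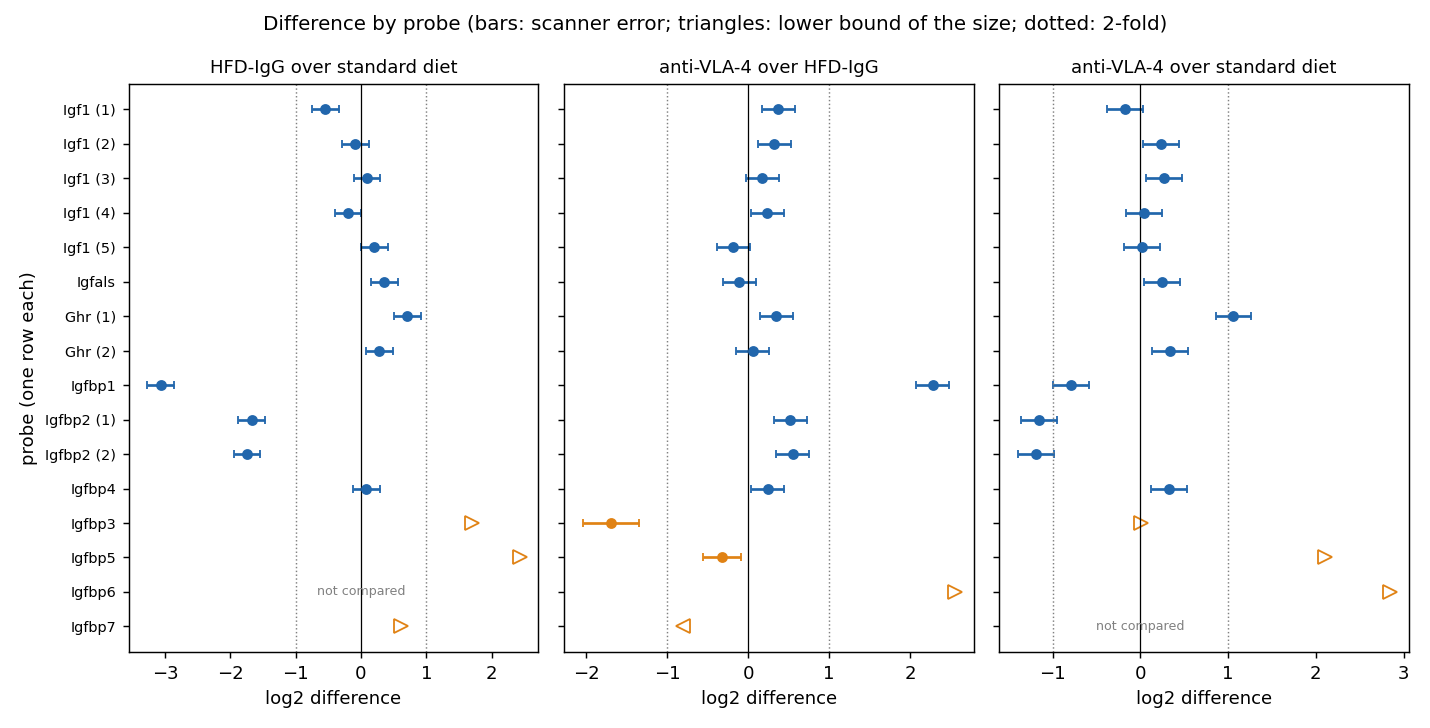
Log2 difference of each of the 16 probes, HFD-IgG over standard diet, anti-VLA-4 over HFD-IgG and anti-VLA-4 over standard diet, with 1 row per probe, blue for hepatocyte-made and orange for sinusoidal-cell-made genes. Bars are scanner errors, open triangles are lower bounds of the size, and dotted lines mark 2-fold. The Igfbp1 and Igfbp2 probes lie past 2-fold on the low side for HFD-IgG over standard diet (-3.07, -1.74 and -1.68), and no Igf1 probe passes it in any panel.

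None of the 4 sinusoidal-cell-made genes cleared the background in standard diet. Igfbp3, whose product carries most circulating IGF-I, had 0.0258 ± 0.00526 on the anti-VLA-4 array, 0.0837 ± 0.0105 in HFD-IgG and 0.00515 ± 0.00513 in standard diet. HFD-IgG was thus at least 3.25-fold higher than standard diet (1.70). Anti-VLA-4 was 3.24-fold lower than HFD-IgG (-1.70, scanner error 0.35), with both signals well above background, and its bound against standard diet was 0.01 in log2, which gives no direction. The anti-VLA-4 signal was close to the lowest one well above background on its array, 0.0224. The difference between these arrays kept its direction but fell short of 2-fold with quantile scaling (-0.89) and with normexp (-0.50), and the bound against standard diet was 0.64 in log2 with quantile scaling.

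Igfbp5, a binding protein of matrix-producing cells, had 0.111 ± 0.0123 on the anti-VLA-4 array, 0.139 ± 0.0160 in HFD-IgG and 0.0132 ± 0.00621 in standard diet. Both high-fat diet arrays were above the standard diet array, HFD-IgG by at least 5.39-fold (2.43) and anti-VLA-4 by at least 4.31-fold (2.11). The high-fat diet arrays differed from each other by -0.32 in log2 (scanner error 0.23), and by 0.18, the other way, with quantile scaling. Igfbp7, which binds IGF weakly, had 0.0140 ± 0.00482 on the anti-VLA-4 array, 0.0393 ± 0.00803 in HFD-IgG and 0.00620 ± 0.00618 in standard diet. Its signal cleared the background in HFD-IgG alone, at least 1.53-fold above standard diet (0.61), while anti-VLA-4 was at least 1.75-fold lower than HFD-IgG (-0.81). Quantile scaling left no fold for Igfbp7 in either comparison.

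Igfbp6, whose product prefers IGF-II over IGF-I, differed from the other 3 in being highest in anti-VLA-4. It had 0.185 ± 0.0192 on the anti-VLA-4 array, against 0.0106 ± 0.00694 in HFD-IgG and 0.0177 ± 0.00605 in standard diet. The anti-VLA-4 array alone was well above background, at least 5.87-fold higher than HFD-IgG (2.55) and at least 7.20-fold higher than standard diet (2.85). Igfbp6 entered both comparisons through anti-VLA-4 alone, so its bounds can only be positive. Of genes that cleared the background in anti-VLA-4 and not in HFD-IgG 10.5% were at least 2-fold higher, and against standard diet 27.4%. The value rests on 1 spot of 1 probe, whose pixels had a mean of 177 and a median of 166 on the anti-VLA-4 array (SD 44.3), a mean of 93.5 and a median of 94.0 in HFD-IgG (SD 14.5) and a mean of 101 and a median of 99.0 in standard diet (SD 18.1). The scanner software marked the spot as an outlier on no array. With normexp no fold remained against HFD-IgG, and the bound against standard diet was 1.78.

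Markers of liver cell types were set beside the sinusoidal-cell-made genes, whose bounds between HFD-IgG and standard diet can only be positive. Of 11 hepatocyte markers all were well above background on all arrays, among them Alb, Fgb and Ahsg, and their summed relative signal was 3142 on the anti-VLA-4 array, 3074 in HFD-IgG and 3243 in standard diet. Their median was -0.44 for HFD-IgG minus standard diet, with 0 at least 2-fold higher and 1 lower, Cps1 (-1.14), and 0.31 for anti-VLA-4 minus HFD-IgG, with 1 higher, Fga (1.06), and 0 lower. These medians had the signs of the Igfbp1 and Igfbp2 differences, but the markers were mixed. Of the 11, 5 were above 0 for HFD-IgG minus standard diet and 7 for anti-VLA-4 minus HFD-IgG. HFD-IgG exceeded standard diet by 2-fold or more in 10 of 12 sinusoidal endothelial markers (median 2.90, lower bounds included in this and the next lists), with summed signals of 35.1 in anti-VLA-4, 58.3 in HFD-IgG and 15.4 in standard diet. Of the brightest, Clec4g (2.94) and Stab2 (2.76) did so and Kdr (0.03) did not. It did so in all 11 Kupffer cell and macrophage markers (median 2.56), among them Cd5l (3.21) and Csf1r (2.02), with sums of 49.0, 65.2 and 10.1 on the same arrays. It did so in 10 of 12 stellate cell and fibroblast markers (median 2.88), among them Dcn (3.24) and Ecm1 (3.01), with sums of 15.9, 32.2 and 3.42, and 10, 12 and 4 of these cleared the background on the same arrays. No marker of these 3 lists was 2-fold lower in HFD-IgG than in standard diet. The shares of all genes compared were 20.4% higher and 2.41% lower. Markers dim in standard diet, most of the stellate list, entered through HFD-IgG alone, so their bounds can only be positive. Among all genes of that kind 76.7% were at least 2-fold higher. In these bulk preparations a larger number of such cells and more RNA per cell cannot be told apart, and the part of these markers in the binding protein differences was not tested.

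The same lists in anti-VLA-4 against HFD-IgG had medians of -0.92 for sinusoidal endothelial, -0.42 for Kupffer cell and -0.97 for stellate cell markers. Of these, 3 of 12, 0 of 11 and 5 of 12 were at least 2-fold lower, and none was 2-fold higher, where 16.5% of all genes compared were lower and 1.9% higher. Igfbp3 (-1.70), Igfbp5 (-0.32) and Igfbp7 (at most -0.81) lay on the same side as these medians, and Igfbp6 (at least 2.55) lay on the other. Igfbp7 cleared the background in HFD-IgG alone and Igfbp6 in anti-VLA-4 alone, so the signs of these bounds were fixed by the filter. With quantile scaling Igfbp5 gave 0.18 and Igfbp7 no fold, while Igfbp3 stayed lower (-0.89). Of 6 mesothelial and portal fibroblast markers, the mesothelial Msln and Upk3b and also Gpm6a were not well above background on any array, and the summed signal of the list was 0.191 on the anti-VLA-4 array, 0.404 in HFD-IgG and 0.140 in standard diet. The HFD-IgG sum was mostly Cd34 (0.282), and with the mesothelial markers dim on all arrays the list says little of such cells. The source of the Igfbp6 signal was not tested. In anti-VLA-4 against HFD-IgG 0 of 6 cholangiocyte markers were at least 2-fold higher and 3 lower, and of 4 compared T, NK and B cell markers 0 were higher and 1 lower. Of 5 neutrophil and monocyte markers 2 were higher, S100a8 (2.03) and S100a9 (2.21), and 1 was lower, Ccr2 (-1.52).

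**Figure D3:**
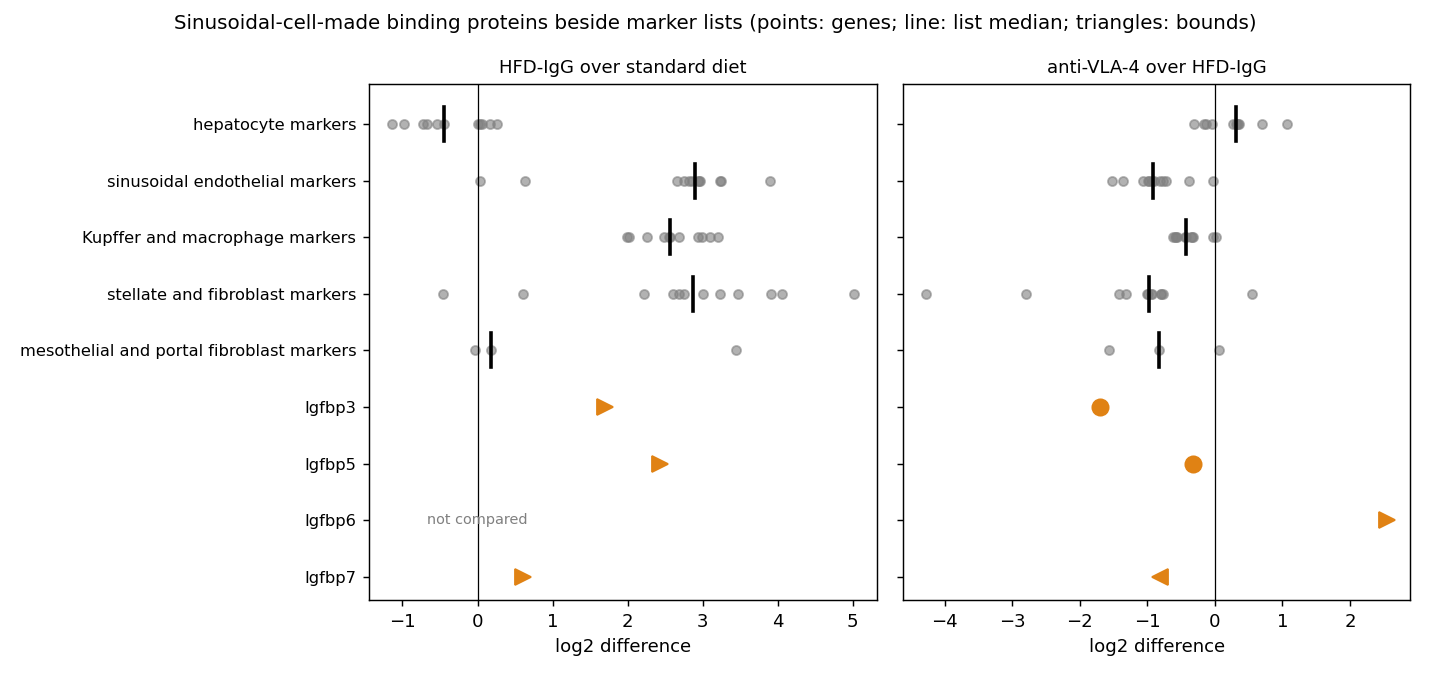
Log2 differences of the genes of 5 marker lists (grey points, lower bounds included; black line, list median) and of the 4 sinusoidal-cell-made genes (orange; triangles are lower bounds of the size), for HFD-IgG over standard diet and anti-VLA-4 over HFD-IgG. The sinusoidal endothelial, Kupffer and stellate medians are 2.90, 2.56 and 2.88 on the left and -0.92, -0.42 and -0.97 on the right, where Igfbp6 alone of the 4 genes lies above 0. Each triangle could lie only on the side shown, since the gene cleared the background on only 1 array of the pair.

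In anti-VLA-4 against HFD-IgG all 10 genes could be compared, and 2 were at least 2-fold higher, the hepatocyte-made Igfbp1 and the sinusoidal-cell-made Igfbp6, where 1.9% of all compared genes were. Only Igfbp3 was at least 2-fold lower, where 16.5% were. The median was 0.21 over the hepatocyte-made genes, beside -0.06 over all genes compared and -0.01 over genes well above background on all arrays. In anti-VLA-4 against standard diet 9 genes were compared, and 2 were at least 2-fold higher, Igfbp5 and Igfbp6, where 7.98% of all genes were. Igfbp2 was at least 2-fold lower, where 3.39% were. Here the hepatocyte-made median was 0.26, that of all genes 0.00 and that of genes well above background on all arrays -0.04. The 3 sinusoidal-cell-made genes compared entered through anti-VLA-4 alone, with bounds that can only be positive.

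A gene well above background on only 1 array of a pair has a bound on 1 side, so the counts of sinusoidal-cell-made genes are read beside genes of the same kind. Of 3862 genes well above background in HFD-IgG and not in standard diet, 76.7% were at least 2-fold higher, and Igfbp3 and Igfbp5 but not Igfbp7 were among them. Of 1439 genes well above background in anti-VLA-4 and not in HFD-IgG, as Igfbp6 was, 10.5% were at least 2-fold higher. Of 2194 such genes against standard diet, 27.4% were.

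Neighbouring genes of the family were also set side by side. Igfbp1 and Igfbp3 lie side by side on chromosome 11, with 4092 bases between their probes. For HFD-IgG minus standard diet Igfbp1 gave -3.07 and Igfbp3 at least 1.70, and for anti-VLA-4 minus HFD-IgG they gave 2.28 and -1.70. Igfbp2 and Igfbp5 lie on chromosome 1 with 5956 bases between their probes, and gave -1.74 and at least 2.43 for HFD-IgG minus standard diet. For anti-VLA-4 minus HFD-IgG these 2 genes gave 0.55 and -0.32, but 0.63 and 0.18 with quantile scaling. Igfbp3 and Igfbp5 cleared the background in HFD-IgG and not in standard diet, so their bounds there can only be positive. Of such genes 76.7% were at least 2-fold higher. In each pair 1 gene was hepatocyte-made and the other sinusoidal-cell-made. On mm9 the probe of Igfbp1 spans 7102442 to 7102501, that of Igfbp3 7106594 to 7106653 and that of Igfbp5 72904829 to 72904888. The other probes lie at 25018251 to 25018310 of chromosome 17 for Igfals, 98913334 to 98913393 of chromosome 11 for Igfbp4, 101979852 to 101979911 of chromosome 15 for Igfbp6 and 77778271 to 77778330 of chromosome 5 for Igfbp7.

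Genes with a pattern like that of Igfbp1 were sought among 12198 named genes well above background on all arrays, by the distance in both log2 differences, HFD-IgG minus standard diet and anti-VLA-4 minus HFD-IgG. The nearest was the nuclear noncoding RNA Neat1 (-2.79 and 2.51, distance 0.36), the only gene within 0.5. Next came Cish, a STAT5-induced inhibitor of cytokine receptors (-2.93 and 1.67, distance 0.62), and the organic anion transporter gene Slco1a1 (-2.34 and 1.54, distance 1.03). Igfbp2 had 50 genes within 0.5, and the nearest were Tmem43 (-1.69 and 0.52, distance 0.06), the carboxylesterase gene Ces2a (-1.65 and 0.55, distance 0.10) and the amino acid transporter gene Slc43a1 (-1.66 and 0.49, distance 0.10). Likeness over 3 arrays says nothing of a shared function.

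The growth hormone pathway between Ghr and Igf1 was counted over 13 genes, all well above background on all arrays. Of these, 2 were at least 2-fold lower in HFD-IgG than in standard diet, Cish (-2.93) and Socs2 (-1.16), both STAT5-induced feedback inhibitors. Another 2 were at least 2-fold higher, the repressor gene Bcl6 (2.23), which opposes STAT5 at shared sites, and Socs1 (1.81). Among all genes compared 2.41% were at least 2-fold lower and 20.4% higher. The list median was 0.12. Cish had a relative signal of 0.743 on the anti-VLA-4 array, 0.234 in HFD-IgG and 1.78 in standard diet, and Socs2 had 0.116, 0.217 and 0.484. Cish was thus lowest in HFD-IgG and Socs2 lowest in anti-VLA-4, while both were highest in standard diet.

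In anti-VLA-4 against HFD-IgG 2 of the 13 were at least 2-fold higher, Socs3 (1.98), an inhibitor induced by STAT3, and Cish (1.67), and none was 2-fold lower. Among all genes compared 1.9% were at least 2-fold higher and 16.5% lower. Stat3 itself was just under the line at 0.997. Socs3 had 2.93 on the anti-VLA-4 array, 0.744 in HFD-IgG and 1.24 in standard diet, so anti-VLA-4 was highest. Against standard diet 4 were higher in anti-VLA-4 and 2 lower, with Socs2 (-2.06), Bcl6 (1.89), the prolactin receptor gene Prlr (1.65) and Socs1 (1.60) furthest from 0, and a median of 0.81. Here 7.98% of all genes compared were at least 2-fold higher and 3.39% lower. Stat5b, the main transducer of growth hormone in liver, had 5.89, 5.18 and 3.37 on the anti-VLA-4, HFD-IgG and standard diet arrays.

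Igfbp1 is a fasting and FOXO1 target, and 10 genes of that programme and its regulators were counted beside it. In HFD-IgG against standard diet 1 of 10 was at least 2-fold lower, Irs2 (-2.52), which encodes an insulin receptor substrate and is, like Igfbp1, suppressed by insulin. Foxo3 was at least 2-fold higher (at least 1.55), while the gluconeogenic genes G6pc (-0.83) and Pck1 (-0.35) stayed under 2-fold, and the median was -0.16. The shares of all genes compared were 2.41% lower and 20.4% higher. Foxo3 cleared the background in HFD-IgG and not in standard diet, where 76.7% of such genes were 2-fold higher. Irs2 had 1.37 on the anti-VLA-4 array, 0.796 in HFD-IgG and 4.55 in standard diet, the same order as Igfbp1. Foxo1 itself had 5.14, 4.10 and 4.16 on these arrays. In anti-VLA-4 against HFD-IgG none of the 10 was 2-fold different in either direction, where 1.9% of all genes compared were higher and 16.5% lower. The largest differences were those of G6pc (0.80) and Irs2 (0.79), and the median was 0.24, beside -0.06 over all genes compared. Against standard diet Irs2 alone was 2-fold different, lower by 1.73 in log2, where 3.39% of all genes compared were 2-fold lower.

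Of 5 other IGF ligand and receptor genes, Igf2, which adult mouse liver is known to make little of, was well above background on the anti-VLA-4 array alone. It had 0.130 on that array, against 0.0267 in HFD-IgG and 0.0107 in standard diet, at least 4.11-fold and at least 5.04-fold higher. It was thus highest in anti-VLA-4, as Igfbp6 was, and both rest on dim signals of the array on the other slide. Its bounds can only be positive. Among genes that cleared the background in anti-VLA-4 and not in HFD-IgG 10.5% were at least 2-fold higher, and against standard diet 27.4%. Igf1r, the IGF-I receptor gene, was at least 1.66 higher in log2 in HFD-IgG than in standard diet and 0.82 lower in anti-VLA-4 than in HFD-IgG. The insulin receptor gene Insr gave -0.54 and 0.76 in these comparisons, and Igf2r, which clears IGF-II, gave -0.39 and 0.46. Insrr, a gene for a relative of the insulin receptor, cleared the background in HFD-IgG alone. Igf1r too did not clear the background in standard diet, so its bound against that array can only be positive. Of genes that cleared it in HFD-IgG and not in standard diet 76.7% were at least 2-fold higher, beside 20.4% of all genes compared.

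Of 4 measured genes for proteases of the binding proteins and their inhibitors, 2 were at least 2-fold higher in HFD-IgG than in standard diet and none lower. All but Pappa cleared the background in HFD-IgG and not in standard diet, where 76.7% of such genes were 2-fold higher. The 2 were Stc2, an inhibitor of PAPP-A (at least 3.10), and Htra1, a serine protease that cleaves IGFBP-5 (at least 2.78). In anti-VLA-4 against HFD-IgG 3 were at least 2-fold lower, Stc2 (at most -3.29), Pappa2 (at most -1.09) and Htra1 (-1.08), and none higher, where 16.5% of all genes compared were lower. Stc2 and Pappa2 entered this comparison through HFD-IgG alone, so their bounds can only be negative. The share among genes of that kind was not computed. Pappa, the protease of IGFBP-4, had 0.0510 on the anti-VLA-4 array, 0.0575 in HFD-IgG and 0.0533 in standard diet. Of 7 genes for IGFBP-like proteins 4 were compared, and Esm1 (at least 3.04) and Ccn2 (2.04), endothelial and connective tissue genes, were higher in HFD-IgG than in standard diet. Among all genes compared 20.4% were at least 2-fold higher. Of the 3 IGF2 mRNA binding protein genes, which share only a name with the family, Igf2bp2 alone was measured, at least 2.36 higher in HFD-IgG than in standard diet. Esm1 and Igf2bp2 did not clear the background in standard diet, so they too belong to the kind of which 76.7% were 2-fold higher.

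**Figure D4:**
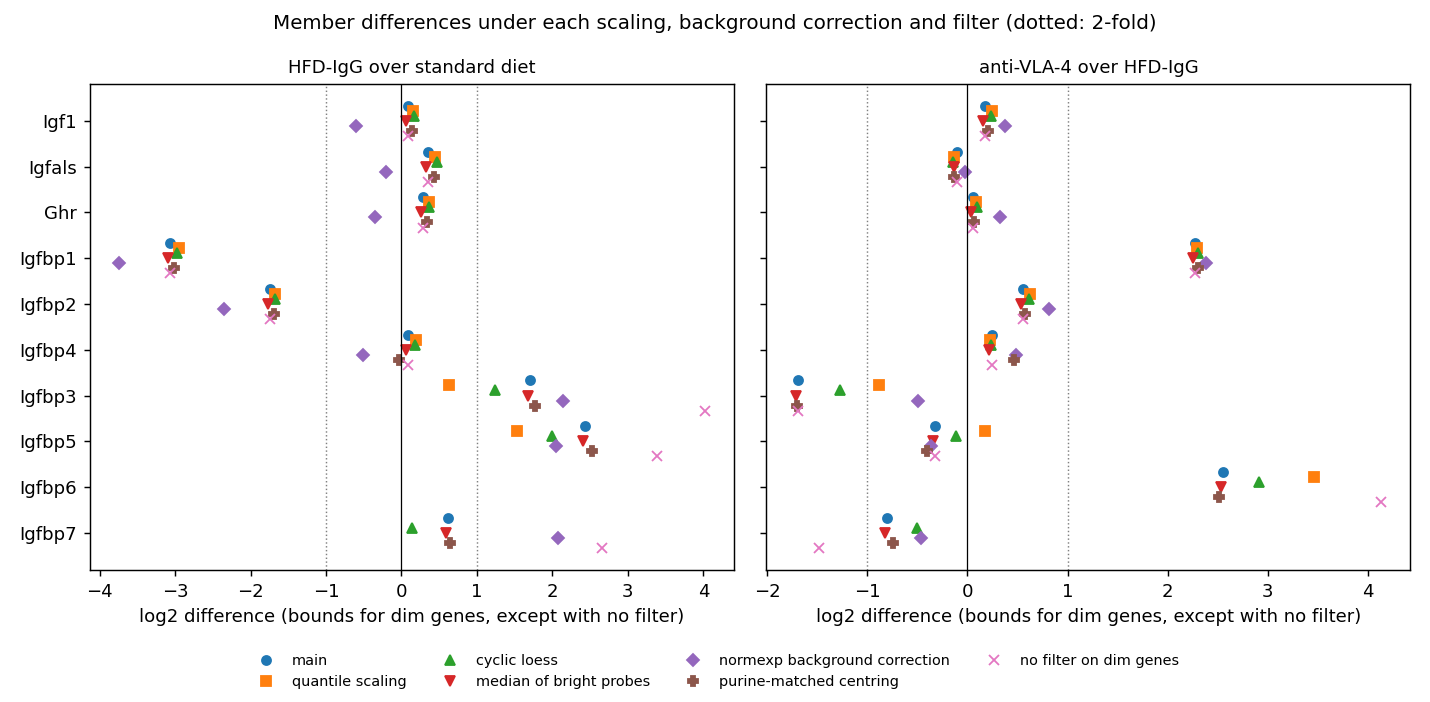
Log2 differences of the 10 genes under the main values and 6 other ways of scaling, correcting or filtering (symbols), for HFD-IgG over standard diet and anti-VLA-4 over HFD-IgG; dim genes are lower bounds except with no filter, and settings that left no fold have no symbol. Igfbp1 lies between -3.74 and -2.95 on the left and between 2.26 and 2.38 on the right over 9 alternatives, while Igf1, Igfals, Ghr and Igfbp4 move across 0 on the left with normexp.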

How the data were processed

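Total RNA was labelled with Cy3 and scanned, and spot intensities come from Agilent Feature Extraction 11.0.1.1 (named in the submitters' processing notes), with background subtraction and detrending per the file headers. Spot flags are other values of that software, per the file headers. The deposited table holds a ratio, which comparison with the scanner files showed to be the processed signal over the array's 75th percentile (largest relative deviation 2.00e-08 over 23206 spots), with column medians of 0.81 (anti-VLA-4), 0.80 (HFD-IgG) and 0.79 (standard diet), and it held 6 of the 10 genes. Of its columns 0 were left unmatched.

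Log2 ratios to the 75th percentile were computed from the scanner files, leaving out control and outlier spots. Of 39395 probes 26026 (66.1%) matched an accession of the RefSeq table; the rest, 1 Igf1 probe included, kept the name on the array. Each gene took its brightest probe. Genes entered a comparison if 1 or both arrays were well above background. Background shares cover all 22002, 22589 and 20334 genes compared. All 10 genes were named, with genes from among up to 4 genes of each pathway list furthest from 0 in each comparison, the 3 brightest of each marker list and the 3 nearest patterns of genes at least 2-fold different and measured on all arrays; Socs3, Foxo1, Stat5b, Stat3, Msln, Upk3b, Gpm6a, Cps1, Fga, S100a8 and Ccr2, where outside that rule, were chosen after their values were seen. The genes and lists were chosen with earlier results of these data known. Alternatives were quantile scaling, cyclic loess, the median of bright probes, normexp (offset 50), other filters and folds, the mean over probes, purine-matched centring and the deposited table. Steps were tested on simulated data. Software was R 4.3.3 with limma 3.58.1, and Python 3.11.15 with numpy 2.4.6, pandas 2.3.3 and matplotlib 3.10.9.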

Additional observations from a re-analysis of the deposited data

How the results depend on the processing

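No paired analysis was possible because each group has 1 array and the result comes from no test, and no replicate could be left out. Of 234 differences recomputed under alternatives, 199 moved by less than the scanner error, 35 moved further and 0 counted as 2-fold changed sign. Many of these could not move, since the deposited table holds the same ratios and the filters leave measured genes unchanged. The mean over probes likewise leaves genes with 1 probe unchanged. For dim genes the scanner error is also wide. The Igfbp3 bound of HFD-IgG over standard diet (1.70, scanner error 1.45) counted as unmoved at 0.64 with quantile scaling. The 199 is thus no measure of robustness. Igfbp1 kept both calls that involve HFD-IgG under each alternative run. The counts of genes at least 2-fold different, 2 higher and 2 lower in HFD-IgG over standard diet, and 2 higher and 1 lower in each comparison of anti-VLA-4, moved as follows. With quantile scaling 1 was higher in HFD-IgG over standard diet and 0 lower in anti-VLA-4 over HFD-IgG. With normexp, no filter or the 1.5-fold line 3 were higher in HFD-IgG over standard diet, and with normexp 3 were higher in anti-VLA-4 over standard diet. With normexp 1 was higher and 0 lower for anti-VLA-4 over HFD-IgG, while 2 were lower in anti-VLA-4 over standard diet. With only genes well above background on both arrays, or with the deposited table, 0 were higher in HFD-IgG over standard diet, 1 for anti-VLA-4 over HFD-IgG, and 0 for anti-VLA-4 over standard diet, since dim genes are left out, and the deposited table also left none lower (0) for anti-VLA-4 over HFD-IgG. With no filter 2 were lower for anti-VLA-4 over HFD-IgG, with 4 higher for anti-VLA-4 over standard diet. At 1.5-fold 2 were lower in anti-VLA-4 over each of the others, and at 3-fold 0 were lower in anti-VLA-4 over standard diet. Over all genes compared, the 4498 higher and 531 lower of HFD-IgG over standard diet became 2485 and 2593 with quantile scaling and 8857 and 862 with normexp, and 3493 and 885 with cyclic loess. The 429 higher and 3721 lower of anti-VLA-4 over HFD-IgG became 2455 and 2077 with quantile scaling, 68 and 150 with normexp, and 712 and 3074 with cyclic loess. The 1623 higher and 690 lower of anti-VLA-4 over standard diet became 1185 and 810 with quantile scaling and 6108 and 423 with normexp. With genes well above background on both arrays the 3 comparisons had 1534 higher and 366 lower, 278 and 1235, and 1021 and 378, with the authors' ratios 1451 and 355, 262 and 741, and 1006 and 354, and with no filter 7461 and 1100, 1191 and 6351, and 3417 and 1829. At 1.5-fold they had 6149 and 1713, 1607 and 5269, and 3323 and 1915, and at 3-fold 2865 and 165, 92 and 2183, and 743 and 261. The cause was not tested. Signal over background limits Igfbp3, Igfbp5, Igfbp6 and Igfbp7.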
